A study of Mus musculus with 9 samples.

Results

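Among mouse marrow progenitors that express the CBFB-MYH11 leukaemia fusion, 34 of the 43629 genes in the deposited table were at least 3-fold below wild type and came back to a level near wild type when the cells also carried floxed Chd7 alleles. The members were chosen from group means. A gene had to average at least 100 in wild type, its wild type mean plus 1 had to be at least 3 times its fusion mean plus 1, and its mean with fusion and floxed Chd7 had to lie between 0.67 and 1.5 of the wild type mean. Because all 3 group means chose them, the differences of the members between groups are given below as descriptions, and the one count of members called by a fit is given for size alone. The members make up 6.53% of the 521 genes that met the criteria on wild type and fusion. Of the others, 482 stayed under 0.67 of wild type and 5 exceeded 1.5.

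RNA-seq was done on C57BL/6 bone marrow cells selected with beads for c-KIT (CD117), the receptor for stem cell factor, in 9 libraries from pIpC-treated mice. There were 3 genotypes with 3 libraries each: wild type (WT), Mx1-Cre with Cbfb+/56M (KI), and Chd7f/f with Mx1-Cre and Cbfb+/56M (KI_Chd7del). Mx1-Cre is a recombinase driven by an interferon-responsive promoter, which pIpC, a double-stranded RNA mimic, switches on, and Cbfb+/56M is a conditional allele for the fusion. The WT label names neither Cre nor floxed alleles, so their effects and that of the fusion cannot be told apart in a comparison with WT. Whether same-genotype libraries stem from different mice is not stated, so any spread given here may be technical.

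CBFB is the non-DNA-binding partner of the RUNX transcription factors, which are needed to form blood stem cells and to mature several blood lineages. The fusion joins CBFB to the tail of smooth muscle myosin heavy chain, binds RUNX1 and disturbs its target genes, and is found in a subtype of human acute myeloid leukaemia with abnormal eosinophils. CHD7 is an ATP-dependent chromatin remodeller that binds enhancers. In bulk marrow, fewer cells of a type and less RNA per cell cannot be told apart.

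The deposited values are read numbers scaled per library and rounded, called normalised values below, and their totals in units of 1e6 were 43.2 to 46.2 (WT), 37.7 to 39 (KI) and 37.5 to 38.1 (KI_Chd7del). Chd7 had WT values of 3471, 3745 and 3982, KI values of 1979, 2934 and 2009, and KI_Chd7del values of 1862, 1794 and 1921. Its difference between the last 2 groups did not pass the test (log2 -0.29, SE 0.14, limma adjusted p = 0.121), and a value summed over the whole gene does not show the loss of an exon. Myh11 had WT values of 5 to 9, KI values of 176 to 219 and KI_Chd7del values of 164 to 187. Kit, which encodes the selected receptor, had WT values of 7354 to 7797, KI values of 3226 to 3868 and KI_Chd7del values of 6131 to 8508. Transcripts of maturing neutrophils were abundant in the selected cells. A list of 23 late neutrophil genes summed to between 5038981 and 6327287 in WT, between 321600 and 1018543 in KI (highest in library 2) and between 1596006 and 2062731 in KI_Chd7del (highest in library 1).

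Promoters of 4 members with restricted expression in blood cells show what lies before their start sites: Mcpt8 of basophils, Prg3 of eosinophils, and Pf4 and Gp9 of megakaryocytes. The sequences are the 250 bases before the start site from RefSeq (GRCm38.p6), 5′ to 3′ on the gene's strand, at chr14:56085198-56085447 (minus strand) for Mcpt8, chr2:84987965-84988214 (plus) for Prg3, chr5:90772185-90772434 (plus) for Pf4 and chr6:87777820-87778069 (plus) for Gp9. Capitals mark matches to the RUNX core, TGTGGT or TGCGGT on either strand.
Mcpt8: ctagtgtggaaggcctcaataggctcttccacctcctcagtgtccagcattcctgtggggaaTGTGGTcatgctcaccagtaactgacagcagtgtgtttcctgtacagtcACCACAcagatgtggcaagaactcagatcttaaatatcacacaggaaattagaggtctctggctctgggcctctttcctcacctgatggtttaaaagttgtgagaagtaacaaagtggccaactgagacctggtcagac
Prg3: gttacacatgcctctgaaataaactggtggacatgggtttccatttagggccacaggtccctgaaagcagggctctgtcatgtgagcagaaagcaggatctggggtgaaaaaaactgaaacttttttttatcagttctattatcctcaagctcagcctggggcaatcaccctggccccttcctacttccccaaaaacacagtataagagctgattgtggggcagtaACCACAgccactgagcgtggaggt
Pf4: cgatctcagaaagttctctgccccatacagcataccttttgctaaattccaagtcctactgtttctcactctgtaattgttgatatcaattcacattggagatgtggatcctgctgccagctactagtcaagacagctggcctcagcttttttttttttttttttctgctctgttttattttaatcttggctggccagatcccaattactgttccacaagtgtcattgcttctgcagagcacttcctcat
Gp9: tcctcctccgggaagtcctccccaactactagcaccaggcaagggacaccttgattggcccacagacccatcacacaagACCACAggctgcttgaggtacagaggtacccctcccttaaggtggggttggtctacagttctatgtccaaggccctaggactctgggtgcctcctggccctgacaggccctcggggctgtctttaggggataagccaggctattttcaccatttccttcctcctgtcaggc

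The Mcpt8 window held 2 RUNX matches, those of Prg3 and Gp9 held 1 each, and that of Pf4 held 0. The Prg3 match lies 24 to 19 bases before the start site. Promoters of 22 members were in the RefSeq table, and a RUNX match was found in 5 of them (22.7%), those of Mcpt8, Prg3, Gp9, Ubash3a and Fbxo17. The start sites used for Dusp1 and Pxylp1, which count among the 22 and hold no match, lie far from the annotated 5′ ends of these genes. The share was 25.7% of the 323 promoters of lowered genes that stayed under 0.67 of WT and 17.9% of all 18852 promoters of the same length. The C/EBP pattern TTNNGNAA was present in 11 of 22 (50%), against 40.2% and 34.5%, and the PU.1 core GAGGAA in 7 (31.8%), against 31.3% and 22.3%. The GATA core AGATAA was present in 2 (9.09%), against 9.91% and 8.82%. The median promoter of the members held 5.5 CpG dinucleotides in these 250 bases, against 7 in the other lowered genes, 9 in all promoters of the table and 15 in all genes tested. These matches describe letters only, and no binding was measured.

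All 34 members were among the 15997 genes that were tested because 3 or more libraries reached 10. WT over KI ran from 3.08 to 12.8 (median 3.64). KI_Chd7del over WT ran from 0.673 to 1.44, with a median of 0.784, so that 27 members lay below the WT mean and 7 above. The libraries of KI lay below those of WT without overlap in 32 members (31.8% of all genes tested), and those of KI_Chd7del above those of KI in 29 (23.8%). KI_Chd7del overlapped WT in 26 members (42.4% of all genes) and was below each WT library in 7 (28.8%). By limma at an adjusted p of 0.05, 33 members were lower in KI than in WT (27.2% of all genes), 29 were above KI in KI_Chd7del (17.5%), and 4 differed from WT in KI_Chd7del, each lower (24.3%). The rule used these contrasts, and the counts are given only for size. Both comparisons with KI use the same KI libraries, so a gene picked for low KI values is high against KI for that reason too.

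**Figure D1:**
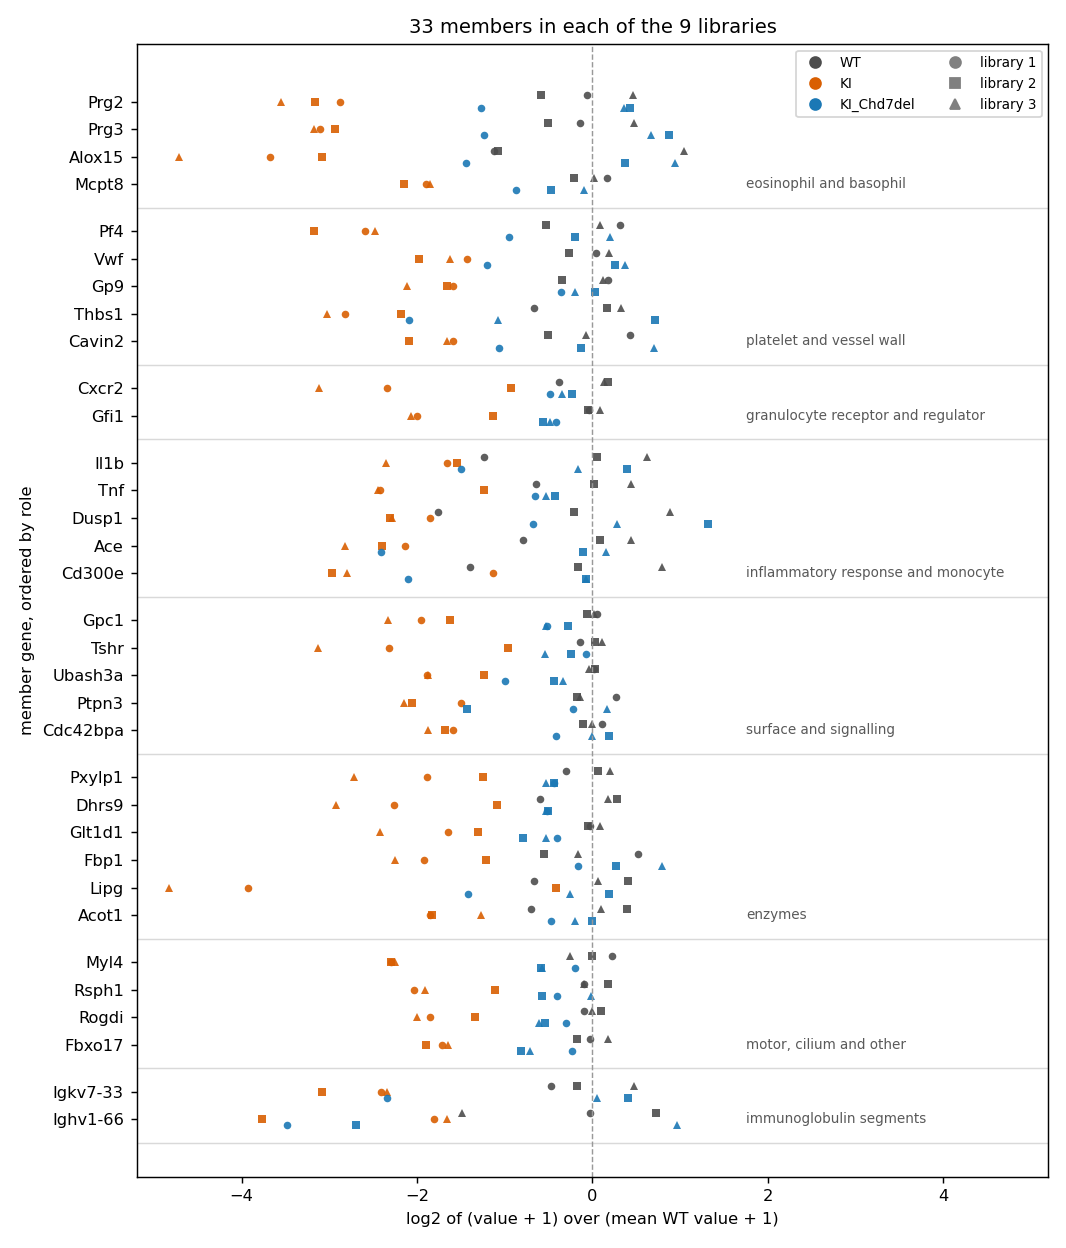
Each row is 1 of the 33 members drawn and each symbol 1 library, placed by the log2 of its value plus 1 over the mean WT value plus 1, with colour for the group and shape for the library number. KI libraries lie to the left of WT in 31 of these 33 members, whereas KI_Chd7del symbols overlap WT in most rows, lie more often left of 0 than right of it, and include a low library 1 in rows such as Thbs1, Ace, Cd300e and Igkv7-33.

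The members are the upper tail of a broad distribution. Over the 521 lowered genes the median of KI_Chd7del over WT was 0.377, with quartiles of 0.259 and 0.485, and 474 of them had a KI_Chd7del mean above the KI mean. Between 0.5 and 0.67 of WT lay 73 genes, and no gap separated them from the members. Just inside the lower bound were Glt1d1 (0.673), Fbxo17 (0.673) and Ubash3a (0.677), and just outside it Kif17 (0.669), Ldhb (0.667) and Cd101 (0.663). Just inside the upper bound were Dusp1 (1.44) and Prg3 (1.28), and just outside it Tie1 (1.73), Fos (1.79) and Ear1 (1.96). The lowest WT over KI among members was 3.08 in Rsph1, 3.09 in Acot1 and 3.11 in Ubash3a, whereas Pknox2 (2.97), Tgfbr3 (2.97) and Klra17 (2.95) fell just short. Apart from the immunoglobulin segments Ighv1-66 (122) and Igkv7-33 (126.3), the lowest mean WT levels among members were 136.7 in Fbxo17, 166 in Myl4 and 186 in Gp9, and Tgm3 (96), Gp1bb (85) and Fgf3 (76) were just too low.

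**Figure D2:**
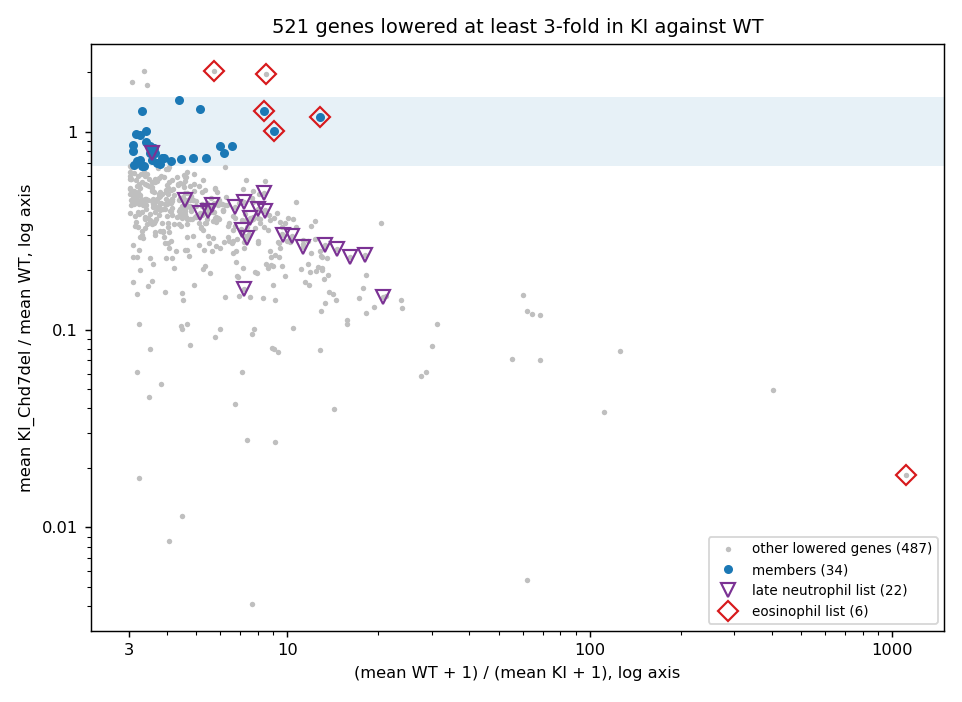
Each point is 1 of the 521 genes lowered at least 3-fold in KI, with WT over KI on the horizontal log axis and KI_Chd7del over WT on the vertical log axis, and the shaded band runs from 0.67 to 1.5. Of 22 late neutrophil genes 1 lies in the band, and of 6 eosinophil genes 3 lie in it and 2 above.

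The eosinophil list supplied the 3 members with the largest WT over KI, Alox15, Prg2 and Prg3, and a basophil protease gene was a member too. Prg2, the major basic protein of eosinophil granules, had WT values of 20125, 14030 and 28876, KI values of 2859, 2333 and 1789, and KI_Chd7del values of 8735, 28295 and 26920. KI was thus far below the other groups, and in KI_Chd7del library 1 was low while libraries 2 and 3 were in the WT range. The log2 difference of KI from WT was -3.14 (SE 0.44) and that of KI_Chd7del from KI 3.04 (SE 0.44). Its paralogue Prg3 had WT values of 1103, 858 and 1688, KI values of 140, 158 and 134, and KI_Chd7del values of 516, 2225 and 1927, again with library 1 lowest. Prg2 (chromosome 2, 84980461 to 84983632, GRCm38) and Prg3 are adjacent, 4582 bases apart.

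Alox15, a lipoxygenase of eosinophils and macrophages, had the highest WT over KI of the members, 12.8. It had WT values of 275, 285 and 1243, KI values of 46, 70 and 22, and KI_Chd7del values of 220, 778 and 1157. Library 3 set the WT mean, and the WT and KI_Chd7del ranges overlapped. Mcpt8, a basophil protease, had WT values of 3885, 2992 and 3501, KI values of 925, 776 and 953, and KI_Chd7del values of 1889, 2499 and 3243. All 3 KI libraries of Mcpt8 were below the rest, and only library 3 of KI_Chd7del reached the WT range.

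The other genes of these cell types did not share a pattern. Epx, eosinophil peroxidase, fell in KI (log2 -2.47, SE 0.65, limma adjusted p = 0.00922) and rose from KI to KI_Chd7del (3.14, SE 0.65, adjusted p = 0.00529). Its 6371, 3895 and 8527 in WT stood against 2717, 17553 and 18049 with floxed Chd7, so that libraries 2 and 3 exceeded WT and the mean was 2.04 times that of WT. Ear1, an eosinophil-associated ribonuclease, likewise stood at 1.96 of WT. Ear6 of the same family had 1273, 821 and 2336 in WT and 2, 16 and 64 in KI_Chd7del, or 0.0185 of WT, although reads of near-identical Ear genes may have been divided. Siglecf, a surface lectin of eosinophils, rose in KI (log2 1.72, SE 0.13, adjusted p = 6.99e-06). Ccr3, the eotaxin receptor, had WT values of 468, 498 and 699, KI values of 1037, 545 and 476, and KI_Chd7del values of 243, 215 and 362. Counts of list genes that rose or fell, here and below, are limma calls at an adjusted p of 0.05. Over all 15997 genes tested, 5084 were called higher and 4345 lower in KI than in WT. From KI to KI_Chd7del, 6464 were called, 2803 of them higher. Of 10 tested genes of the eosinophil list, 6 were lower and 1 higher in KI (median log2 -2.69, against 0.02 over all genes tested). From KI to KI_Chd7del, 6 rose and 2 fell (median 3.09, against -0.01). These counts and medians include the members Prg2, Prg3 and Alox15, which the rule chose for such values. Of the list, 6 genes met the 3-fold criterion and 3 of them are members. Of 15 tested mast cell and basophil genes, 12 were called higher and 3 lower in KI. Prss34, a basophil protease like Mcpt8, fell (log2 -2.83, SE 0.16, adjusted p = 1.32e-06) and stood at 0.512 of WT in KI_Chd7del, while Ms4a2, a chain of the IgE receptor, rose (4.87, SE 0.18, adjusted p = 1.96e-07).

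Another 5 members belong to platelets, their precursors or the vessel wall. Pf4, platelet factor 4, a chemokine of alpha granules, had WT values of 940, 524 and 803, KI values of 124, 83 and 135, and KI_Chd7del values of 390, 660 and 869. Vwf, the multimeric adhesion protein of platelets and endothelium, had WT values of 558, 450 and 617, KI values of 200, 137 and 175, and KI_Chd7del values of 235, 647 and 703. Gp9, the platelet glycoprotein IX, had WT values of 210, 146 and 202, KI values of 61, 58 and 42, and KI_Chd7del values of 145, 190 and 162. In these 3 genes each KI library was below each WT library, and library 1 was the lowest of KI_Chd7del.

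Thbs1, the matricellular protein thrombospondin 1, had WT values of 3762, 6705 and 7458, KI values of 847, 1314 and 729, and KI_Chd7del values of 1398, 9818 and 2836. No KI_Chd7del library of Thbs1 was itself between 0.67 and 1.5 of the WT mean, and the mean of 0.784 rests on library 2, without which it is 0.354. Cavin2, a caveolar coat protein, had WT values of 250, 131 and 177, KI values of 43 to 61, and KI_Chd7del values of 88, 170 and 304.

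Within the GPIb-IX-V complex, the platelet receptor for VWF, the subunits went apart. Gp1bb, like Gp9, was low in KI, at 25, 18 and 13 against 102, 80 and 73 (log2 -2.16, SE 0.33, adjusted p = 0.000421), and had 37, 73 and 75 in KI_Chd7del. It was too low in WT to be a member. Gp1ba rose instead, from 167, 159 and 176 to 2296, 1521 and 2688 (log2 3.65, SE 0.20, adjusted p = 9.77e-07), and so did Gp5 (2.56, SE 0.23, adjusted p = 1.45e-05). Of 16 tested megakaryocyte genes 8 were called higher and 6 lower in KI, with a median log2 difference of 0.35. The summed megakaryocyte list had WT values of 6765 to 8148, KI values of 11696 to 16788 and KI_Chd7del values of 11552 to 13888, so its order is not that of the 3 members.

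**Figure D3:**
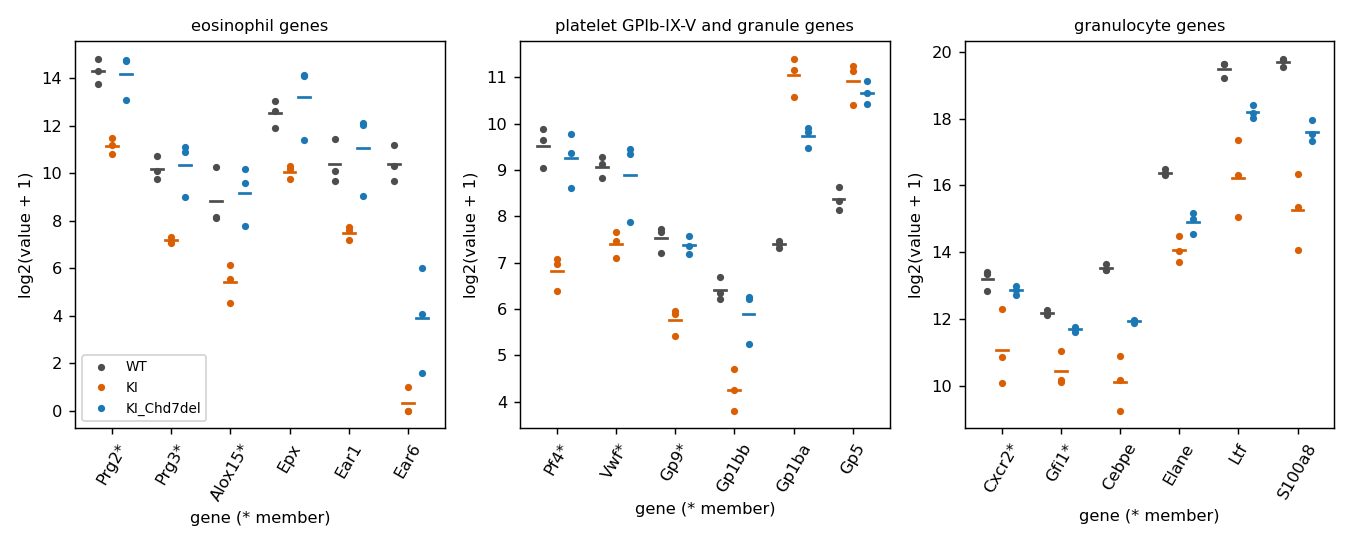
Points are the 3 libraries of each group on the log2(value + 1) scale and short bars are their means, for members (starred) and related genes picked after their values were seen. KI lies below WT for Gp9 and Gp1bb and above WT for Gp1ba and Gp5, and KI_Chd7del overlaps WT for Cxcr2 and lies below it without overlap for Gfi1 and, further, for Cebpe, Elane, Ltf and S100a8.

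Of the neutrophil genes, a chemokine receptor and a transcription factor were members while the granule genes were not. Cxcr2, the receptor that guides neutrophils out of the marrow, had WT values of 7318, 10773 and 10436, KI values of 1873, 5002 and 1091, and KI_Chd7del values of 6801, 8080 and 7492. It ranged widely in KI, with library 2 at 3.38 times the mean of the other 2, and narrowly in KI_Chd7del. Gfi1, a repressor required for granulocyte maturation, had WT values of 4507, 4488 and 4905, KI values of 1152, 2111 and 1099, and KI_Chd7del values of 3484, 3129 and 3301. Each KI_Chd7del library of Gfi1 was above each KI library and below each WT library, so its 0.713 of WT is a partial return. The transcript A430072P03Rik overlaps Gfi1 on the opposite strand, and whether reads were counted by strand is not given in the sources used here.

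All 23 late neutrophil genes fell in KI, of which 22 by at least 3-fold, Chil3 being the exception. Cxcr2 alone of them was a member, and the other 21 stood at 0.146 to 0.492 of WT in KI_Chd7del (median 0.319). Among them were S100a8, an alarmin (0.239), Ltf, lactoferrin (0.406), and Ly6g, a neutrophil surface protein (0.146). In the early granule list of 12, 9 were called lower in KI (median log2 -1.39), and 11 were called higher in KI_Chd7del than in KI. Gfi1 is a member of this list too. Cebpe, a transcription factor of granulocyte maturation, reached 0.331 of WT (log2 difference from WT -1.59, adjusted p = 0.00315) and Elane, neutrophil elastase, 0.364 (-1.48, adjusted p = 0.000413). Mpo, myeloperoxidase, had WT values of 218566, 189519 and 232841, KI values of 92604, 124100 and 106779, and KI_Chd7del values of 164347, 241378 and 230524. Its return to 0.993 of WT followed a 1.98-fold difference, too small for the rule. Prtn3, Ctsg, Clec12a and Cst7 of the same list also missed the fold and not the window. Prtn3 had a WT over KI of 2.36 and reached 0.692 of WT, and Ctsg had 1.17 and 1.43. Clec12a had 2.46 and 0.729, and Cst7 had 1.06 and 1.01.

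A further 3 members are genes of the inflammatory response and 2 are known from patrolling monocytes. Il1b, interleukin 1 beta, had WT values of 385, 946 and 1405, KI values of 287, 312 and 178, and KI_Chd7del values of 322, 1198 and 813. Tnf, tumour necrosis factor, had WT values of 205, 325 and 435, KI values of 59, 136 and 58, and KI_Chd7del values of 204, 239 and 223. Dusp1, a phosphatase that switches off MAP kinases, had WT values of 395, 1156 and 2464, KI values of 369, 270 and 274, and KI_Chd7del values of 835, 3345 and 1620. Library 1 was the lowest of WT in all 3 genes and lowest of KI_Chd7del in these 3 also, by little for Tnf. An antisense transcript of Il1b, Il1bos, went the other way, with WT values of 13, 14 and 13, KI values of 159, 121 and 153, and KI_Chd7del values of 73, 30 and 30.

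Ace, angiotensin-converting enzyme, had WT values of 355, 655 and 835, KI values of 139, 116 and 86, and KI_Chd7del values of 115, 571 and 682. Cd300e, an activating receptor of monocytes, had WT values of 94, 222 and 431, KI values of 113, 31 and 35, and KI_Chd7del values of 57, 237 and 237. In both genes KI_Chd7del library 1 was in the KI range and libraries 2 and 3 were in the WT range, and for Cd300e KI overlapped WT. Cx3cr1, the fractalkine receptor of these monocytes, fell in KI (log2 -2.21, SE 0.30, adjusted p = 0.000214), rose from KI to KI_Chd7del (1.44, adjusted p = 0.00584) and reached 0.628 of WT. Of 10 patrolling monocyte genes, listed after the values were seen, 5 were called lower and 1 higher in KI (median log2 -0.87, against 0.02 over all genes tested). Only 1 of these 10 was called higher in KI_Chd7del than in KI, although the median log2 difference was 0.44 (against -0.01 over all genes tested). The list includes the members Ace and Cd300e, which the rule chose for such values. Of 23 monocyte and macrophage genes, 16 were called higher and 4 lower in KI. From KI to KI_Chd7del, 16 were called lower and 4 higher. Immediate early genes respond within minutes to handling or stimulation. Among them Fos had WT values of 420, 2910 and 6247, KI values of 1232, 1054 and 842, and KI_Chd7del values of 2721, 10376 and 4040. A list of 10 such genes, chosen after the values were seen, had WT sums of 8685, 17790 and 26113, KI sums of 11463 to 12776, and KI_Chd7del sums of 13438, 32663 and 19223. The genes of the list did not share a pattern, since Atf3 had WT values of 21, 26 and 56, KI values of 731, 647 and 930, and KI_Chd7del values of 81, 83 and 111. Their part in the values of Dusp1, Il1b, Tnf and Thbs1 was not tested.

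Among the members at the cell surface and in signalling, the spread within groups was narrow for Gpc1 and wide for Tshr in KI and Ptpn3 in KI_Chd7del. Gpc1, glypican 1, a heparan sulphate proteoglycan that binds growth factors, had WT values of 9104, 8434 and 8917, KI values of 2277, 2854 and 1745, and KI_Chd7del values of 6170, 7287 and 6102. The 3 groups of Gpc1 did not overlap, with KI_Chd7del between KI and WT at 0.739 of WT. Tshr, the thyrotropin receptor, had WT values of 586, 662 and 698, KI values of 129, 333 and 73, and KI_Chd7del values of 617, 546 and 445. Ubash3a, a suppressor of T cell receptor signalling, had WT values of 1859 to 1954, KI values of 515 to 809, and KI_Chd7del values of 961 to 1521. Cdc42bpa, a kinase that acts on the actin cytoskeleton, had WT values of 648, 555 and 595, KI values of 199, 186 and 163, and KI_Chd7del values of 448, 682 and 596. For Cdc42bpa the WT and KI_Chd7del ranges overlapped and both were above KI. Ptpn3, a tyrosine phosphatase, had WT values of 194 to 266, KI values of 49 to 77, and KI_Chd7del values of 188, 81 and 246, where library 2 was the low one.

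Another 6 members encode enzymes or enzyme-like proteins. Pxylp1, a phosphatase of proteoglycan synthesis, had WT values of 5945, 7653 and 8457, KI values of 1987, 3096 and 1111, and KI_Chd7del values of 5409, 5428 and 5097. Dhrs9, a short-chain dehydrogenase that can use retinol, had WT values of 1033, 1888 and 1757, KI values of 324, 733 and 205, and KI_Chd7del values of 1085, 1098 and 1077. Both genes were highest in library 2 of KI and nearly equal over the KI_Chd7del libraries. Fbp1, fructose bisphosphatase of gluconeogenesis, had WT values of 840, 400 and 523, KI values of 155, 253 and 123, and KI_Chd7del values of 523, 707 and 1022, with a mean of 1.28 times WT. Lipg, endothelial lipase, had WT values of 249, 526 and 413, KI values of 25, 297 and 13, and KI_Chd7del values of 147, 452 and 331. Library 2 decided the KI mean of Lipg. Without it WT over KI was 19.9, and without KI library 1 or 3 it was 2.54 or 2.45, below the rule. Glt1d1, a glycosyltransferase-like protein, and Acot1, an acyl-CoA thioesterase whose reads may be divided with its close paralogue Acot2, had WT over KI of 3.30 and 3.09.

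A last set of members encodes other proteins. Myl4, a myosin light chain, had WT values of 194, 165 and 139, KI values of 33, 33 and 34, and KI_Chd7del values of 145, 110 and 111. Rogdi, whose product is annotated as a leucine zipper protein, had WT values of 3692, 4197 and 3924, KI values of 1088, 1561 and 981, and KI_Chd7del values of 3192, 2695 and 2588. The KI_Chd7del libraries of Rogdi lay between those of the other 2 groups. Rsph1, of the radial spoke of cilia, lies 8126 bases from Ubash3a on chromosome 17 and had WT values of 207 or more, KI values of 53 to 102, and KI_Chd7del values of 148 to 218. Fbxo17, an F-box protein, had 121 to 155, 36 to 43 and 77 to 116. The last 2 members are immunoglobulin variable segments, for which reads of similar segments may be divided. Igkv7-33 had WT values of 91, 112 and 176, KI values of 14 to 24, and KI_Chd7del values of 24, 168 and 131. Ighv1-66 had WT values of 120, 203 and 43, KI values of 34, 8 and 38, and KI_Chd7del values of 10, 18 and 239. Its mean in KI_Chd7del rests on library 3, without which it was 0.115 of WT, so libraries 1 and 2 of Ighv1-66 go against the description as a restored gene.

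Per exon length the members differed in WT by orders of magnitude. Prg2 was highest at 25072 normalised values per kb of annotated exon, ahead of Mcpt8 (3466) and Cxcr2 (3120), and Cdc42bpa (27.9), Ptpn3 (30.4) and Vwf (33.7) were lowest. The members lay on 14 chromosomes, with 5 on chromosome 2. Of 40 protein-coding neighbours of members that averaged at least 100 in WT, 7 were among the lowered genes (4.70% of all genes at that level), and 4 of these 7 are members themselves, Prg2 with Prg3 and Ubash3a with Rsph1.

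The KI_Chd7del libraries did not share 1 pattern over the members. Library 1 was the lowest of its group in 22 of 34 members, or 64.7%, against 39.7% of the 481 tested lowered genes under the window and 36.7% of all genes tested. It was at or below 0.5 of the mean of libraries 2 and 3 in 13 members (38.2%), against 13.7% and 4.63%. These 13 were Prg2, Prg3, Alox15, Vwf, Thbs1, Cavin2, Il1b, Dusp1, Ace, Cd300e, Lipg and both immunoglobulin segments. By contrast the ratio was 0.874 for Cxcr2, 1.08 for Gfi1 and 0.922 for Gpc1. Taken alone, library 1 lay between 0.67 and 1.5 of the WT mean in 17 members and below it in the other 17. Libraries 2 and 3 each lay in that window in 25, and in 10 members all 3 libraries did. The rule set this window on the mean of the same 3 libraries, so these counts partly follow from it. In library 1 the eosinophil list summed to 17042, against 60184 and 58514, and the late neutrophil list to 2062731, against 1599413 and 1596006. The part of these cell types in the low values was not tested.

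**Figure D4:**
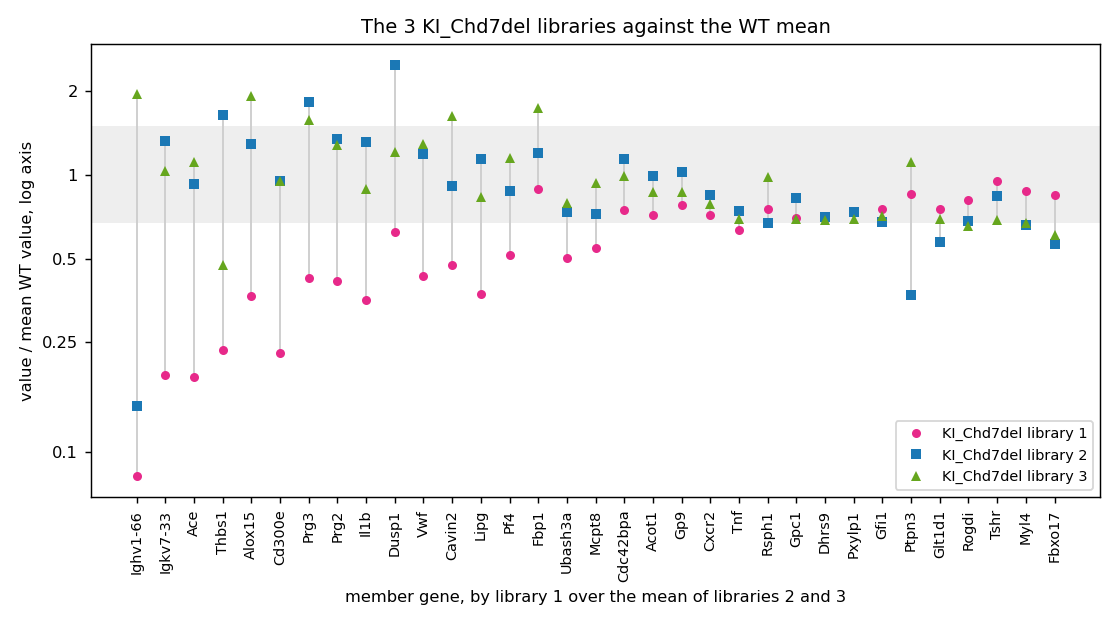
The same 33 members are ordered by library 1 of KI_Chd7del over the mean of libraries 2 and 3, each symbol is 1 KI_Chd7del library divided by the WT mean on a log axis, and the shaded band runs from 0.67 to 1.5. Library 1 lies below the band in 17 members, mostly on the left, while on the right the 3 libraries lie close together except for Ptpn3.

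Each KI_Chd7del library was also left out of the choice and then read, with the WT and KI libraries still used for both. Choosing genes without KI_Chd7del library 1 gave 36 genes, whose values in that library had a median of 0.575 of WT. Of these 36, 14 lay in the window, 21 below and 1 above. Choosing without library 2 gave 35 genes with a held-out median of 0.826, with 18 in the window, 12 below and 5 above. Choosing without library 3 gave 29 with a median of 0.836, with 18 in the window, 7 below and 4 above. The same shares over all genes were not computed, so these counts have no background to be read against. Without library 1, Prg3 (1.71), Alox15 (1.61) and Dusp1 (1.85) passed above the window, while Fbxo17 (0.585), Glt1d1 (0.633) and Myl4 (0.666) fell below, and 8 genes entered, among them Cx3cr1, Tie1 and Cd101.

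In KI, library 2 was the highest of its group in 18 members, or 52.9%, against 76.9% of the lowered genes under the window and 36.6% of all genes tested. It reached 1.5 times the mean of the other 2 in 14 members (41.2%, against 54.1% and 8.38%), including Lipg (15.6), Cxcr2 (3.38), Tshr (3.30), Dhrs9 (2.77) and Tnf (2.33), and the summed late neutrophil list was highest in that library as well. It was lower than the others for Pf4 (0.641), Vwf (0.731) and Cavin2 (0.723). Spread within WT was larger for members than for other genes. The median SD of log2(value + 1) over the WT libraries was 0.37 for members, 0.18 for the lowered genes under the window and 0.12 for all genes tested, and in KI_Chd7del it was 0.37, 0.25 and 0.14. In KI the order differed, with 0.37 for members, 0.51 for the lowered genes under the window and 0.13 for all genes tested.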

How the data were processed

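The authors' deposited table holds 1 whole-number value per gene and library for 43629 Ensembl genes. The unit is a score: read numbers divided by a size factor per library and rounded by the authors, which was read from gaps among low values. The submitters' processing notes name the build GRCm38 and, without roles, DESeq2, RSEM, STAR 2.4 and CASAVA 1.8.2; the annotation release is not given in the sources used here. Since the values are not raw counts, limma 3.58.1 (R 4.3.3) was fitted with a mean-variance trend to log2(value + 1), over 15997 genes with at least 10 in at least 3 libraries, with 3 groups and Benjamini-Hochberg adjustment at 0.05. Such fold changes understate low genes. The fit was also run on simulated counts, with 200 changed genes and the same dispersion for every gene. These data have far more called genes and wider spread in the members, so that run does not show how the fit performs here. Symbols, positions and exon lengths came from GENCODE M21 (42462 genes matched). Where a gene has several RefSeq start sites, the one nearest its GENCODE 5′ end was used.

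Library totals were 37.5 to 46.2 in units of 1e6, and values near 100 are also limited by counting. Members, lists and roles were chosen with earlier results of these data known. By rule, members were named when they were in one of 16 fixed lists, among the 12 highest in WT or the 10 with the largest fold, among the 5 at either end of the ratio, next to a threshold, or among the 5 with the widest KI_Chd7del spread; this gave 26 names, of which 1 member is not reported here, and the other 8 were added after their values were seen. Alternatives were other thresholds, scalings, filters and pseudocounts, group medians, 2-group fits, a replicate block and leaving out each library. Another 2 lists, of immediate early and monocyte genes, were added after seeing the data.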

Additional observations from a re-analysis of the deposited data

How the results depend on the processing

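The 34 members numbered 130 with a fold of 2, 12 with a fold of 4 and 12 with a window narrowed at both ends, its start raised to 0.8. Leaving out each library gave 23 to 50 members, and 6 of the 34, among them Prg2, Pf4, Gp9, Gpc1 and Cdc42bpa, were members in all 9 such choices. Scaling to the column total gave 37 members, of which 17 were among the 34, upper-quartile factors 42 (33 shared) and quantile normalisation 42 (27 shared), and 12 members were kept under all 3 scalings. The members' differences of KI from WT kept their sign under all alternatives run, and those of KI_Chd7del from KI did too except for Ighv1-66, which turned to -0.0026 without KI library 2 and to -0.67 without KI_Chd7del library 3 and reached 1.55 without library 1. Since the rule chose the members on these same libraries, the kept signs largely follow from the choice. Cbfb differed by -0.07 between KI_Chd7del and WT and by 0.18 when scaled to the column total (limma adjusted p = 0.0488). In the same comparison, scaling to the column total moved the median log2 difference over all genes tested from 0.02 to 0.26. The cause of the change in Cbfb was not tested. That scaling raised the share of higher genes among calls from 53.9% to 74.2% in KI against WT and from 49.7% to 78.7% in KI_Chd7del against WT, where upper-quartile factors gave 59.4%. In KI_Chd7del against KI the share was 43.4%, and 57.4% with upper-quartile factors or 56.9% with quantile normalisation. With a replicate block, the calls were 9121 against 9429 for KI against WT, 5952 against 6464 for KI_Chd7del against KI, and 7411 against 7735 for KI_Chd7del against WT. Deviations of same-numbered libraries correlated at -0.153 to 0.109. Libraries with different numbers were not correlated for comparison, so these values cannot decide whether the numbers pair the libraries. Leaving out each library gave 8253 to 9823, 4779 to 6421 and 6338 to 7914 calls.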
